A study of Mus musculus with 8 samples.

Results

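MHC class I and its peptide loading machinery were examined in naive mouse CD8+ T cells kept for 24 h in culture with RGX-104 at 2 µM or with DMSO alone. RGX-104 is a small molecule that activates liver X receptors (LXR), and DMSO is its solvent. The genes were 10 listed symbols, chosen by name: the heavy chains H2-K1, H2-D1 and H2-Q7, the light chain B2m, the loading genes Tap1, Tap2 and Tapbp, the immunoproteasome subunits Psmb8 and Psmb9, and the regulator Nlrc5. All 10 had a row among the 41730 gene rows, but only B2m and Nlrc5 had enough counts to be tested. The other 8 lie on chromosome 17 and were listed at 0 to 2 counts in every library. Each group held 4 libraries, RGX-104 replicates 5 to 8 and DMSO replicates 1 to 4, made with a 3' end kit from cells purified with a magnetic kit for naive CD8+ cells. Strain, age and sex of the mice are not given in the labels. Whether the 4 libraries of each group stem from different animals or cultures is not stated, so the spread behind each p-value may be technical.

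MHC class I molecules carry short peptides to the cell surface, where CD8+ T cells and natural killer cells inspect them, and T cells display class I molecules themselves. Peptides are cut by the proteasome, whose immune form carries Psmb8, Psmb9 and Psmb10 in place of Psmb5, Psmb6 and Psmb7, and are pumped into the endoplasmic reticulum by the Tap1 and Tap2 transporter. Tapbp, Calr and Pdia3 hold the empty heavy chain and B2m until a peptide is bound. Nlrc5 drives transcription of class I genes from a promoter module occupied by RFX, CREB/ATF and NF-Y factors, and interferons raise the pathway through factors that include Irf1.

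The start regions of B2m, H2-K1 and H2-D1 are shown because they hold a feature that the choice of genes did not use, the spaced pair of half-sites that forms part of that module. They are RefSeq sequences of GRCm38.p6, from 250 bases before to 50 bases after a listed start, read 5′ to 3′ on the gene's strand. The B2m window is chr2:122147437-122147736 (plus strand), that of H2-K1 is chr17:34000298-34000597 (minus strand, the first of 2 listed starts) and that of H2-D1 is chr17:35262844-35263143 (plus strand). The H2-K1 window lies inside the span given for that gene (chr17:33996012-34000619), so its start is not the outer end of the span. Capitals mark matches, on either strand, to the CREB/ATF half-site TGACG, the NF-Y box CCAAT, the interferon regulatory factor core AANNGAAA and the NF-kB core GGNNTTNCC.
B2m: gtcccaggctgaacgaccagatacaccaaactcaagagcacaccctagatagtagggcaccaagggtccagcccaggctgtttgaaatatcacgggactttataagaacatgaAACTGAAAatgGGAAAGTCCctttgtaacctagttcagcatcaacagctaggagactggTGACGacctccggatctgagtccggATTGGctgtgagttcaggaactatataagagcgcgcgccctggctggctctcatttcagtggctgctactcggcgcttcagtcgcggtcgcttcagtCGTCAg
H2-K1: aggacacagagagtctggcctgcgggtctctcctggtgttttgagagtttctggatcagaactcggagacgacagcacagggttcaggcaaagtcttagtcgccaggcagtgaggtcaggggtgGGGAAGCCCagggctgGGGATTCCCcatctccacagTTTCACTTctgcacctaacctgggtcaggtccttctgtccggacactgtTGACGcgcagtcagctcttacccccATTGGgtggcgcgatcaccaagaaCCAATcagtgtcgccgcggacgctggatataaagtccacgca
H2-D1: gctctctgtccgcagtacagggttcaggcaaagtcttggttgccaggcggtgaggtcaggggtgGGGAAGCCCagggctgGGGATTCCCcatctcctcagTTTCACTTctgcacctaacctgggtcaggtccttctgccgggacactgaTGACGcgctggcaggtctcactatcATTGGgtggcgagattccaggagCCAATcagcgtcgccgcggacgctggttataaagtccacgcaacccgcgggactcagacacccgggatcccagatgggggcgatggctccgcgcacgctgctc
In all of these windows TGACG was followed 20 bases later by ATTGG, the reverse complement of CCAAT, and in the H2-Q7 window it was followed 19 bases later. This order, with 15 to 30 bases between the 2 words on the gene's strand, was found in 101 of 32851 windows of the same length (0.307%). The search was laid out after these sequences had been read. The words alone are common: TGACG was held by 20.8% of windows, CCAAT by 37.4%, AANNGAAA by 23.9% and GGNNTTNCC by 16% of them. The spaced pair was not found in the windows of Tap1, Tapbp, Psmb8 and Psmb9, nor in those of the heavy chains H2-Q4 and H2-T22. The Tap1 and Psmb9 windows share 275 bases, since the genes start back to back on opposite strands. The H2-K1 and H2-D1 windows had the same base at 176 of 240 aligned positions (73.3%), while B2m and H2-K1 had the same base at 29.4% of positions without gaps. A match is a description of the letters and was not tested for use in these cells.

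Levels are given as CPM, the share of a library's counts that a gene holds, scaled to a common total. Changes are log2 fold changes of RGX-104 over DMSO from edgeR's quasi-likelihood test, with Benjamini-Hochberg adjustment across the 10037 genes that passed the filter on low counts. Genes with an adjusted p under 0.05 are said to be called. Total counts lay between 16196217 and 28287445 per library. At least 1 count was found for 10442 to 10990 genes in RGX-104 libraries and for 9772 to 10908 genes in DMSO libraries. Over all genes, 11 were called (0.11%), 10 of them higher (0.0996%) and 1 lower (0.00996%), and the median log2 fold change was 0.01. The 4 receptor targets chosen as a check on the treatment (Abca1, Abcg1, Srebf1 and Mylip) were all among the higher genes, with log2 fold changes of 1.67 to 5.68 (adjusted p 3.45e-08 to 8.64e-05) and no overlap between the groups. With a robust dispersion the call of Abca1 was lost (adjusted p = 0.757).

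Neither measured class I gene was called by edgeR, DESeq2 or limma-voom. In edgeR 0 of 2 were called, against 0.11% of all genes tested, and 0 of 2 had an unadjusted p under 0.05, against 3.81%. When DMSO replicate 2 was left out, 1 of the 2 had an unadjusted p under 0.05 in edgeR. B2m, the light chain shared by all classical class I molecules, lies at chr2:122147687-122153082. It had 4239, 4228, 4113 and 4300 CPM in RGX-104 replicates 5 to 8, against 3766, 4362, 3500 and 3716 CPM in DMSO replicates 1 to 4. These values rest on 66609 to 119899 counts per RGX-104 library and on 60601 to 85229 per DMSO library. All 4 RGX-104 libraries lay above 3 of the DMSO libraries and below DMSO replicate 2. B2m averaged 4220 ± 78.1 CPM in RGX-104 and 3836 ± 369 CPM in DMSO (SD, n = 4 each). Its log2 fold change was 0.12 ± 0.08 (SE), with a 95% interval of -0.04 to 0.28 and an adjusted p of 1.00 (0.123 unadjusted). In limma-voom the unadjusted p of B2m was 0.0146 and its adjusted p was 0.735. Without DMSO replicate 2 the log2 fold change was 0.18 (adjusted p = 1.00), and with a term for genes detected per library it was 0.17 (adjusted p = 1.00).

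Nlrc5, the regulator of class I transcription, lies at chr8:94434335-94527272. It had 169.8, 154.1, 178.8 and 202.4 CPM in RGX-104 replicates 5 to 8, against 155.4, 203.1, 189.5 and 167.5 CPM in DMSO replicates 1 to 4. The groups covered the same range, and each held values near 155 and near 203 CPM. Nlrc5 averaged 176 ± 20.2 CPM in RGX-104 and 179 ± 21.5 CPM in DMSO (SD, n = 4 each). Its log2 fold change was -0.04 ± 0.17 (SE), with a 95% interval of -0.38 to 0.31 and an adjusted p of 1.00. The sign turned when DMSO replicate 2 or RGX-104 replicate 6 was left out (0.02 each), so no direction is given. A test that does not pass does not show equal levels, and the intervals leave room for changes of the size they span. In bulk RNA fewer cells of a type and less RNA per cell cannot be told apart.

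**Figure D1:**
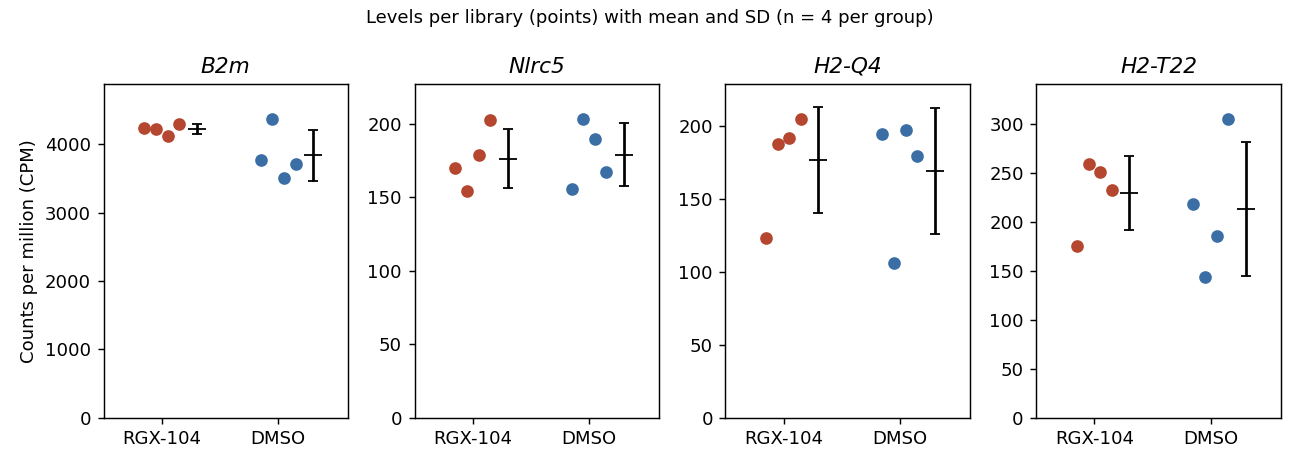
CPM per library (vertical axis, from 0) of B2m, Nlrc5, H2-Q4 and H2-T22 in 4 RGX-104 and 4 DMSO libraries; points are libraries, and the black marks are the mean and SD of each group. The groups overlap in all of these genes, and the B2m values of RGX-104 libraries lie within 4113 to 4300 CPM.

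The profile of B2m and Nlrc5 over the 8 libraries, taken as the mean of their standardised log2 CPM, was closely matched by those of Smad7 (Pearson r 0.92), Tmpo (0.89), Slc25a4 (0.88) and Snx3 (0.87). These were among the 5 most alike of 3542 genes with a mean of at least 50 CPM. They are given as a description over 8 libraries that differ in depth and treatment, and none was called.

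The heavy chains themselves could not be measured. H2-K1 (chr17:33996012-34000619), 1 of the classical heavy chains, had 2, 0, 0 and 0 counts in RGX-104 replicates 5 to 8 and 1, 1, 0 and 0 counts in DMSO replicates 1 to 4. H2-D1 (chr17:35263094-35267497), also a classical heavy chain, had 1 count in RGX-104 replicate 7 and was listed at 0 in the other libraries. H2-Q7 (chr17:35439140-35443773), a non-classical heavy chain of the Qa-2 family, had 1 count each in RGX-104 replicates 5 and 6 and was listed at 0 in the rest. Tap1 (chr17:34187556-34197225), Tap2 (chr17:34204479-34216321), Tapbp (chr17:33919478-33929290), Psmb8 (chr17:34198195-34201454) and Psmb9 (chr17:34182030-34187330) were listed at 0 in all 8 libraries. No fold change or upper limit is given for these 8 genes, because neighbours that nearly every cell uses, such as the ribosomal protein gene Rps18 and the bromodomain gene Brd2, were also listed at 0.

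A property of the table moved with these empty rows. Each of the 8 genes on chromosome 17 appeared in 4 rows, its symbol and 3 repeats of it with a suffix, while B2m and Nlrc5 had 1 row. The repeats did not hold the missing counts, since all rows of the 8 genes together held 8 counts over 8 libraries. Over the whole table, 2339 rows repeated the symbols of 1729 genes and held 0.0114% of all counts. Protein-coding genes with 3 or 4 repeats had at most 8 counts over all libraries in 187 of 198 cases (94.4%), against 46.8% of the 20752 genes with no repeat. These 198 genes include the 8 listed ones, and most of them lie in or beside the MHC on chromosome 17. Their share is therefore not separate from that of the stretch described below. With olfactory receptor genes left out the shares for 3 or 4 repeats and for no repeat were 93.3% and 44.1%. With those genes kept, the share was 77.1% for the 850 genes with 1 repeat and 57.8% for the 83 genes with 2 repeats. It did not rise steadily with the number of repeats. In the stretch of chromosome 17 from 33919478 to 35443773 (GRCm38.p6), which holds the 8 genes, all 95 protein-coding symbols had a repeat and 87 were listed at 0. Ltb, a lymphotoxin gene of lymphocytes, had 2 counts and Ddx39b, an RNA helicase, had 1 count over the 8 libraries. Only H2-Q4, with 27513 counts, and Gpank1, with 790 counts, had at least 100 counts there.

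**Figure D2:**
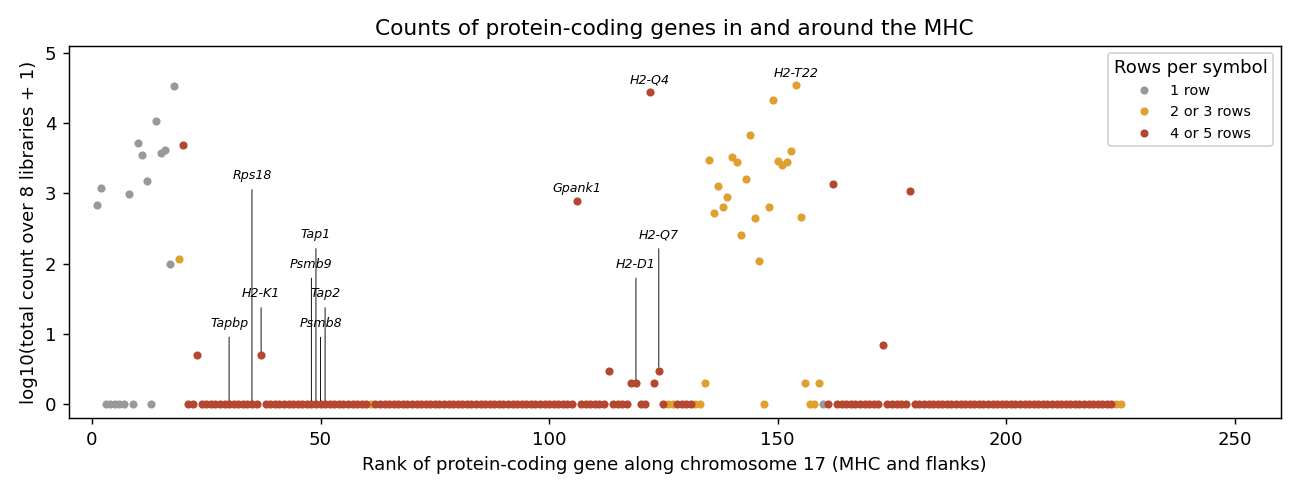
Protein-coding genes of the MHC and its flanks in their order along chromosome 17 (horizontal axis), with the total count over the 8 libraries as log10(count + 1) (vertical axis); colour gives the number of rows per symbol. The 8 listed genes on this chromosome sit at or near 0 among neighbours with 4 rows, while H2-Q4 and H2-T22 have 27513 and 34928 counts.

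The share of sequence found in no other gene was counted at these 3' ends. Words were compared between gene symbols, so a further copy of a gene under the same symbol did not count as another gene. The shares therefore do not tell to how many places a read of these ends aligns. Of the words of 50 bases in the last 300 bases of their protein-coding GENCODE transcripts, 90.5% of those of H2-K1 occurred in no other gene, as did 86.5% for H2-D1, 100% for H2-Q7, 95.1% for Tap1, 87.3% for Tap2, 69% for Tapbp, 89.2% for Psmb8 and 100% for Psmb9. Among other genes of the region with few or no counts, Ltb, Brd2, Csnk2b and Ddx39b had 100% each. Rps28 had 68.1%, H2-Q6, a heavy chain of the Q region, had 38.4% and Rps18 had 31.9%. Among those with counts in every library, the heavy chains H2-Q4, H2-T22, H2-T23 and H2-T24 had 54.2%, 51%, 43.8% and 91.6%. High and low shares thus occurred both among genes with counts and among those with few or none. The handling of reads that align to several copies of a region is not given in the sources used here, and its part in the empty rows was not tested.

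No other heavy chain was called by edgeR, DESeq2 or limma-voom (1 of 8 tested had an unadjusted p under 0.05 in edgeR, against 3.81% of all genes tested). The list of other class I and class I-like heavy chains held 27 symbols, of which 25 had a row and 8 were tested, with a median log2 fold change of 0.03 (5 above 0 and 3 below). H2-T22, a non-classical chain that binds no peptide, had 176.0, 259.1, 251 and 232.8 CPM in RGX-104 replicates 5 to 8, against 218.1, 144.3, 186.3 and 305.1 CPM in DMSO replicates 1 to 4. Its log2 fold change was 0.09 ± 0.21 (SE). H2-Q4, a heavy chain of the Q region, averaged 177 ± 36.5 CPM in RGX-104 and 169 ± 43.1 CPM in DMSO, a log2 fold change of 0.04 ± 0.21. H2-T23, which encodes the Qa-1 molecule that carries leader peptides of other class I chains, averaged 24.6 ± 2.73 CPM in RGX-104 and 23.5 ± 15.99 CPM in DMSO, a log2 fold change of 0.06 ± 0.53. The signs of H2-T22, H2-Q4 and H2-T23 turned under some alternatives. These chains share 3' words with other genes, so their counts may mix several of them.

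Mr1, which shows vitamin B metabolites to MAIT cells, was the lowest in fold change of the tested heavy chains. It had 65.6, 31.0, 114 and 112 CPM in RGX-104 replicates 5 to 8, against 132, 59.3, 206 and 198 CPM in DMSO replicates 1 to 4. The groups overlap through DMSO replicate 2. Mr1 had a log2 fold change of -0.90 ± 0.37 (SE) with an unadjusted p of 0.0263 and an adjusted p of 1.00. The adjusted p ranged from 0.0580 to 1.00 over the alternatives. Cd1d1, which shows lipids to natural killer T cells, averaged 22.3 ± 5.26 CPM in RGX-104 and 17.8 ± 13.1 CPM in DMSO, a log2 fold change of 0.32 ± 0.60. It was 37.2 CPM in DMSO replicate 2 and 14.0 CPM or lower in the other DMSO libraries. The log2 fold change of Cd1d1 ranged from 0.11 without DMSO replicate 1 to 1.08 with DMSO replicate 4 as the only DMSO library. It was 0.96 without DMSO replicate 2 and 1.00 with a term for genes detected.

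The folding and loading factors of the endoplasmic reticulum were listed together with peptide-trimming enzymes of the cytosol, the endoplasmic reticulum and endosomes. This list gave no call in edgeR, DESeq2 or limma-voom (0 of 14 tested had an unadjusted p under 0.05 in edgeR, against 3.81% of all genes tested). Of 15 listed genes 14 were tested, with a median log2 fold change of 0.05 (10 above 0 and 4 below). Hspa5, the chaperone BiP, had 389, 369, 381 and 417 CPM in RGX-104 replicates 5 to 8, against 362, 324, 295 and 301 CPM in DMSO replicates 1 to 4. The lowest RGX-104 library was above the highest DMSO library, a separation of the groups that 3.56% of all tested genes had. The log2 fold change of Hspa5 was 0.26 ± 0.13 (SE), with an unadjusted p of 0.0583 and an adjusted p of 1.00. Calr, the lectin chaperone calreticulin, averaged 338 ± 41.5 CPM in RGX-104 and 291 ± 36.7 CPM in DMSO, a log2 fold change of 0.20 ± 0.15. Tapbpl, a peptide editor related to tapasin, averaged 169 ± 38.7 CPM in RGX-104 and 150 ± 17.6 CPM in DMSO, a log2 fold change of 0.16 ± 0.19. Pdia3, the disulfide isomerase of the loading complex, averaged 135 ± 28.6 CPM in RGX-104 and 149 ± 24.7 CPM in DMSO, a log2 fold change of -0.15 ± 0.20.

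The proteasome genes outside the MHC gave no call in any of the 3 tools (1 of 22 tested had an unadjusted p under 0.05 in edgeR, against 3.81% of all genes tested). Of 25 listed core, activator and assembly genes 22 were tested, with a median log2 fold change of 0.13 (13 above 0 and 9 below). Psma7, a subunit of the outer ring of the core, had 235, 219, 175 and 246 CPM in RGX-104 replicates 5 to 8, against 152, 161, 154 and 177 CPM in DMSO replicates 1 to 4. RGX-104 replicate 7 lay just below DMSO replicate 4, and RGX-104 replicates 5, 6 and 8 exceeded every DMSO value. Psma7 had a log2 fold change of 0.43 ± 0.16 (SE), with an unadjusted p of 0.0182 and an adjusted p of 1.00. Psma6, another outer ring subunit, averaged 69.4 ± 21.9 CPM in RGX-104 and 45.1 ± 12.4 CPM in DMSO, a log2 fold change of 0.60 ± 0.32. Psme1, a subunit of the PA28 activator, averaged 414 ± 38.7 CPM in RGX-104 and 413 ± 44.2 CPM in DMSO, a log2 fold change of -0.01 ± 0.13. The core subunits Psmb1, Psmb3 and Psmb4 had log2 fold changes of 0.15 ± 0.18, 0.09 ± 0.16 and -0.07 ± 0.19. The signs of Psme1, Psmb3 and Psmb4 turned under some alternatives. Psmb6 was listed at 0 in all libraries, with a second row of its symbol.

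The balance of immune and constitutive proteasome subunits could be measured for 1 of the 3 pairs. Psmb10, the immune subunit encoded outside the MHC, averaged 93.4 ± 11.1 CPM in RGX-104 and 94.4 ± 31.1 CPM in DMSO. Psmb7, the subunit it replaces, averaged 32.5 ± 10.4 CPM in RGX-104 and 25.3 ± 4.50 CPM in DMSO. The log2 ratio of their counts was 1.75, 1.65, 2.06 and 0.80 in RGX-104 replicates 5 to 8, against 2.31, 2.11, 1.64 and 1.35 in DMSO replicates 1 to 4. The groups overlapped, and the difference, RGX-104 minus DMSO, was -0.29 (two-sided exact permutation test, p = 0.486, smallest possible p = 0.0286). The other 5 of 6 planned ratios needed a gene listed at or near 0 and were not computed.

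The upstream regulators gave no call in any of the 3 tools (1 of 25 tested had an unadjusted p under 0.05 in edgeR, against 3.81% of all genes tested). Of 26 listed genes 25 were tested, with a median log2 fold change of -0.12 (10 above 0 and 15 below). Jak2, a kinase of the interferon gamma receptor, had 29.3, 29.95, 34.0 and 51.8 CPM in RGX-104 replicates 5 to 8, against 52.6, 100.3, 64.6 and 56.7 CPM in DMSO replicates 1 to 4. All RGX-104 libraries lay below all DMSO libraries, by less than 1 CPM for the closest pair, and the groups did not overlap in 3.56% of all genes tested. For Jak2 the log2 fold change was -0.93 ± 0.33 (SE), with an unadjusted p of 0.0108 and an adjusted p of 1.00, which ranged from 0.210 to 1.00 over the alternatives. Jak1, the kinase shared by both interferon receptor types, averaged 554 ± 62.9 CPM in RGX-104 and 630 ± 69.2 CPM in DMSO, a log2 fold change of -0.20 ± 0.13. Socs1, an inhibitor of this signalling, averaged 338 ± 37.4 CPM in RGX-104 and 262 ± 82.9 CPM in DMSO, a log2 fold change of 0.36 ± 0.20. The receptor chain Ifngr1 averaged 479 ± 26.4 CPM in RGX-104 and 472 ± 31.8 CPM in DMSO, and the factor Irf1 averaged 323 ± 55.7 CPM in RGX-104 and 318 ± 82.8 CPM in DMSO. Their log2 fold changes were 0.00 ± 0.12 and 0.01 ± 0.18, and both signs turned under some alternatives. Nfya, a subunit of the NF-Y factor, was listed at 0 in all libraries, with a second row of its symbol.

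**Figure D3:**
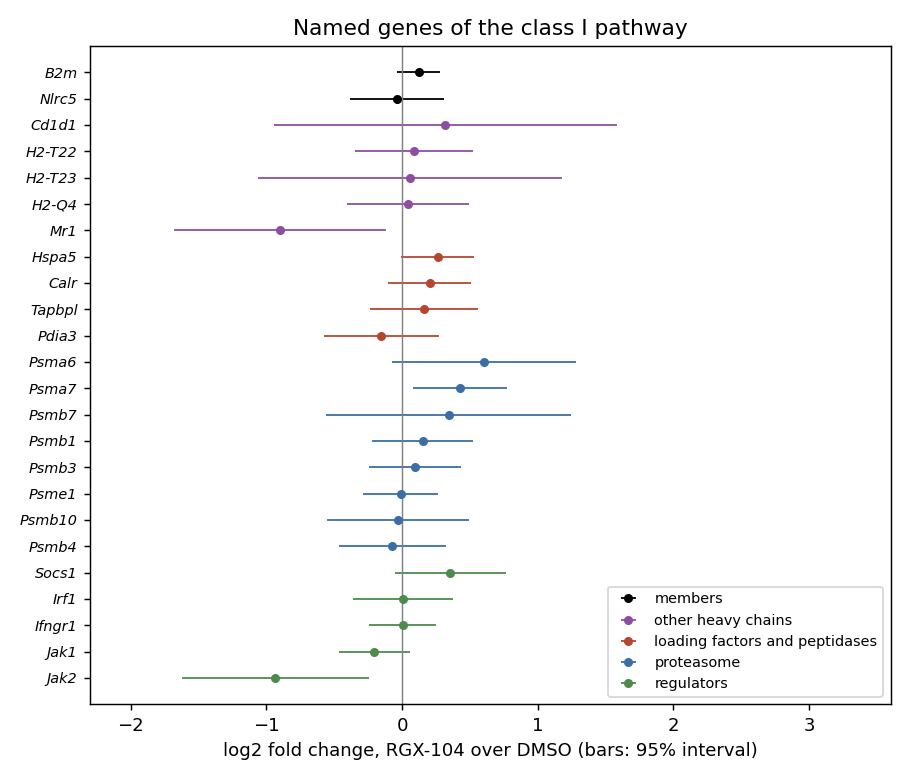
Log2 fold change of RGX-104 over DMSO (horizontal axis) with its 95% interval, 1 gene per line, coloured by list. Drawn are B2m, Nlrc5, Psmb7, Psmb10 and the tested genes of the class I lists named for their level or p. Other genes of the text, such as H2-T24 and H2-Q5, are not drawn. Mr1, Psma7 and Jak2 are the genes whose interval does not reach 0, and none was called after adjustment over 10037 genes.

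Markers of other cells that could add class I RNA had values that overlapped between the groups. The 8 genes of CD8 T cell identity summed to 3803 to 4208 CPM in RGX-104 and 3695 to 3916 CPM in DMSO, with none called. In 1 of these 8 genes the RGX-104 libraries all lay above the DMSO libraries, while the groups did not overlap in 3.56% of all genes tested. All 6 B cell genes were tested and summed to 97.8 to 148 CPM in RGX-104 and 35.7 to 175 CPM in DMSO. Markers of macrophages and monocytes (3 of 6 tested) summed to 8.06 to 24.2 CPM in RGX-104 and 6.24 to 30.9 CPM in DMSO. Those of dendritic cells (0 of 6 tested) reached at most 6.24 CPM in RGX-104 and 7.11 CPM in DMSO, with Itgax, Xcr1 and Clec9a at 0 in all libraries. Markers of CD4 T cells summed to 1.59 to 3.68 CPM in RGX-104 and 2.47 to 14.6 CPM in DMSO. Those of natural killer cells summed to 4.51 to 12.1 CPM in RGX-104 and 5.91 to 11.2 CPM in DMSO, with Ncr1 and Klrk1 at 0 throughout. That sum was Eomes alone, apart from 0.713 CPM of Klrb1c in RGX-104 replicate 8. The part of other cells in the B2m level was not tested. Of 11 class II genes, 9 were listed at 0, and all of these 9 had repeated rows. Cd74, the class II invariant chain encoded outside the MHC, averaged 50.03 ± 9.43 CPM in RGX-104 and 63.5 ± 28.5 CPM in DMSO.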

How the data were processed

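The labels' protocols give a QuantSeq 3' mRNA kit, which reads near the poly(A) end. The values the authors deposited are raw counts per gene symbol, 1 column per library, per the file headers and the values. The submitters' processing notes name STAR 2.7.8a, R 4.1.0, DESeq2 1.4 and GRCm38 but not what each was used for. Counter, strand setting and treatment of reads with several alignments are not given in the sources used, and they can affect the counts of genes with several copies. Groups came from the treatment labels.

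Counts were fitted with edgeR 4.0.16 (quasi-likelihood, TMM, group as the only term, R 4.3.3) on the 10037 genes kept by filterByExpr (minimum count 10), with Benjamini-Hochberg adjustment. The standard error is the log2 fold change over the root of F, and the 95% interval uses its degrees of freedom. The fits were tested on simulated data with planted changes larger than any class I fold change reported here. That test does not speak for changes of the sizes reported. Alternatives used DESeq2 1.42.0, limma 3.58.1 (voom), other scalings and filters, a covariate for genes detected, and left-out libraries. Intervals cover the spread between 8 libraries of 16196217 to 28287445 counts. Gene coordinates and promoters are RefSeq on GRCm38.p6; 3' words come from GENCODE transcripts. The promoter table gave no entry used here for Nlrc5 and Tap2.

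The 10 genes and the lists were chosen with earlier results of these data known. Named were the 10 genes, and in each other list the called genes, the 4 of highest mean CPM and the 2 of smallest p. Some genes are not reported here, although counts over lists include them. Repeated symbols were kept as separate rows. Psmb7, Psmb10, Psmb6, Nfya and the neighbours on chromosome 17 were named for a planned ratio or after their values were seen.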

Additional observations from a re-analysis of the deposited data

Results flagged for a closer look

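In 4 of 84 groups of 4 libraries, 1 library lay apart from the others, and chance gives about 1 in 20, or 4.2 of 84. These groups did not cover every listed gene, so the count does not speak for the whole lists. Psmb5, which is not among the 4, had 11.6 CPM in RGX-104 replicate 8 and 36.0 to 39.1 CPM in RGX-104 replicates 5 to 7. Cd1d1 stood at 37.2 CPM in DMSO replicate 2, with the other DMSO libraries at 9.56 to 14.0 CPM. Pdia3 reached 185 CPM in DMSO replicate 1 and 133 to 140 CPM in the others of its group. Psmb3 reached 363 CPM in DMSO replicate 4, while DMSO replicates 1 to 3 had 247 to 263 CPM. Csf1r, a macrophage marker, reached 5.23 CPM in RGX-104 replicate 8, and RGX-104 replicates 5 to 7 had 0 to 0.803 CPM.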

How the results depend on the processing

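Over 17 alternative settings, none of the 22 genes whose fold change was recomputed was called, no other tested gene of the class I lists was, and 13 kept their direction. B2m stayed between 0.071 and 0.18 on the log2 scale. Nlrc5 was 0.039 with DMSO replicate 4 as the only DMSO library, and lay between -0.11 and 0.021 with 1 library left out. The number of genes called higher was 20 with DESeq2, 6 with genes detected as a covariate and 7 to 11 with 1 library left out, against 10 as reported. The number called lower was 13 with DESeq2, 3 with voom, 4 with no filter and 1 to 3 with 1 library left out, the 3 being without DMSO replicate 4, against 1 as reported. Summing the rows of a symbol, an alternative added after seeing the data, gave the same counts.

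Other log2 fold changes turned in sign, and the cause was not tested. With genes detected as a covariate, H2-T22 was -0.33, H2-Q4 -0.29, Psmb3 -0.13, Psmb4 0.10 and Ifngr1 -0.052. With DMSO replicate 4 as the only DMSO library, H2-T22 was -0.45, H2-Q4 -0.059, Psmb3 -0.29, Ifngr1 -0.12 and Irf1 -0.033. In that fit the lone DMSO library is assumed to vary like the RGX-104 libraries. With voom, H2-Q4 was -0.0091 and Psmb4 0.0035. With library totals only, Psme1 was 0.0044. With DESeq2 and with RLE scaling, Ifngr1 was -0.011 and Irf1 was -0.010. With 1 library left out, the ranges were -0.070 to 0.31 for H2-T22, -0.14 to 0.18 for H2-Q4, -0.21 to 0.61 for H2-T23, -0.083 to 0.030 for Psme1, -0.0079 to 0.24 for Psmb3, -0.25 to 0.018 for Psmb4, -0.033 to 0.047 for Ifngr1 and -0.10 to 0.18 for Irf1. The log2 ratio of Psmb10 to Psmb7 differed by -0.28 with 10 counts added to both genes, and by -0.45 to -0.029 with 1 library left out. No paired analysis was possible because library numbers are unique across the groups.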

Other observations

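Some heavy chains of low level had counts in few libraries, and they are named here after their values were seen. H2-T10 had 224, 2, 53 and 29 counts in RGX-104 replicates 5 to 8 and was listed at 0 in all 4 DMSO libraries. Its 3' end shares words with H2-T22 (50.2% of its words occur in no other gene). In 3.56% of all genes tested the groups did not overlap either, and H2-T10 rests on 2 counts in RGX-104 replicate 6. H2-T10 did not pass the filter on low counts over all 8 libraries. No p-value is given for it, because it was picked by its values and has counts in RGX-104 libraries alone. H2-Q5 had 1, 52, 241 and 83 counts in RGX-104 replicates 5 to 8 and 0, 0, 295 and 270 counts in DMSO replicates 1 to 4. Hfe, which takes part in iron sensing, had 92 counts in RGX-104 replicate 6 and was listed at 0 in the other 7 libraries. Cd1d2 had 101 counts in RGX-104 replicate 5 and was listed at 0 in the rest. Counts of these sizes stand beside zeros in libraries of 16196217 to 28287445 total counts, the largest being RGX-104 replicate 5.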
